A study of Mus musculus with 8 samples.

Results

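The 10 genes described here are germline genes of the mouse that are known to be kept silent by DNA methylation in other cells: Rhox1, Rhox5, Rhox6, Rhox9, Rhox10, Dazl, Mael, Sycp3, Tex19.1 and Tex19.2. All 10 were in the count table, which lists 55421 gene identifiers. They were chosen by that known property with their levels in all 8 libraries already in view, so their levels and differences are given as a description, without a test. The libraries came from E14 mouse embryonic stem cells (129/Ola background) grown on gelatin in serum with LIF, and sequencing of the 3′ ends of polyadenylated RNA gave counts per gene. The 4 groups had 2 biological duplicates each. KO cells lacked the microRNA cluster miR-290-295 and WT cells carried it; neither was transfected, and these 4 libraries form 1 preparation and sequencing set. The siTfap4 cells were KO cells transfected with 5 nM of a siPOOL, a pool of small interfering RNAs, against the transcription factor gene Tfap4, and siNeg cells were KO cells transfected with 5 nM of a negative control siPOOL. Both were harvested after 36 hours and prepared as a separate set, so siTfap4, siNeg and KO cells all lack the cluster. The titles of the KO and WT libraries end in codes whose meaning is not given, and replicate 2 of KO and replicate 1 of WT share the code CC. Whether that code marks a shared batch, and whether the KO libraries come from 1 clone, cannot be told.

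Rhox genes encode homeodomain proteins and lie in a cluster on the X chromosome. They are expressed in testis, ovary and placenta, and methylation of their promoters silences them in the embryo proper. Many other germline genes have CpG-rich promoters that gain methylation around implantation, and a Polycomb complex that contains E2F6 and MAX also represses them in embryonic stem cells. Serum-grown embryonic stem cells transcribe some of these genes at low levels.

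The Rhox genes examined lie on chromosome X of the GRCm38 build: Rhox1 at chrX:37213804-37222258, Rhox5 at chrX:37804842-37808876, Rhox6 at chrX:37826910-37829857, Rhox9 at chrX:37899097-37901770 and Rhox10 at chrX:38066475-38071691. Dazl is at chr17:50279395-50293636, Mael at chr1:166201201-166238747 and Sycp3 at chr10:88459569-88473236. Tex19.1 (chr11:121146143-121148319) and Tex19.2 (chr11:121116215-121118677) are neighbours on chromosome 11. All are annotated as protein-coding. Sycp3 overlaps Chpt1 on the other strand, and since the strand setting of the counting is not given, reads of these 2 genes may not have been kept apart.

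RefSeq promoter windows of GRCm38.p6, from 250 bases before to 50 after the gene start, were available for 8 of the 10 genes, all but Rhox6 and Rhox9. They are shown for Dazl, Mael and Sycp3, which were lower in KO, and for Tex19.2, which was higher, with every CpG in capitals, because DNA methylation acts on the C of CpG.
Dazl, chr17:50293571-50293870, minus strand: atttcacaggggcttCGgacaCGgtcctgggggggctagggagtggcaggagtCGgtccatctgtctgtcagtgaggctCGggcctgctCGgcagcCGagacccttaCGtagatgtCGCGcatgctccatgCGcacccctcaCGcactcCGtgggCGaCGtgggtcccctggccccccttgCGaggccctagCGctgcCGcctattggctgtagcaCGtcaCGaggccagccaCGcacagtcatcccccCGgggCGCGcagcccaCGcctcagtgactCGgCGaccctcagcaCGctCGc
Mael, chr1:166238695-166238994, minus strand: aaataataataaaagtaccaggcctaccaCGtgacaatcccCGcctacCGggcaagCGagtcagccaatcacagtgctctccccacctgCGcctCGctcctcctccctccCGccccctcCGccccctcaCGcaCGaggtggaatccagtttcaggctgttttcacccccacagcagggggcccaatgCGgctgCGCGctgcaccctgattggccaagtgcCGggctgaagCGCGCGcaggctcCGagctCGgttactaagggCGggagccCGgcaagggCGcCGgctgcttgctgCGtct
Sycp3, chr10:88459337-88459636, plus strand: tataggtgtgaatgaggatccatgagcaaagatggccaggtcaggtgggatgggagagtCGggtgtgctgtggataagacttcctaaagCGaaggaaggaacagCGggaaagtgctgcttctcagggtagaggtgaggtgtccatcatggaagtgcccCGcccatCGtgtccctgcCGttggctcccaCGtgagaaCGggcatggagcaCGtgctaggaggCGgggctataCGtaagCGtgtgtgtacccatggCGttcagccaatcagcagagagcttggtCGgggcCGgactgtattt
Tex19.2, chr11:121118628-121118927, minus strand: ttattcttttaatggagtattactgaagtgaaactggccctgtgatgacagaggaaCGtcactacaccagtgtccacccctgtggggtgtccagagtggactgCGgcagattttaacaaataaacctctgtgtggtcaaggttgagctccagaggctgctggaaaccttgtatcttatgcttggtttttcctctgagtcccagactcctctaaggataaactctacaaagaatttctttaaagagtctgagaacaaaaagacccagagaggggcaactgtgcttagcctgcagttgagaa
The Dazl window held 28 CpG and the Mael window 24, while the Tex19.2 window held 2. Sycp3 had 15 and Tex19.1 had 16. Among Rhox genes the counts were 9 for Rhox10, 5 for Rhox5 and 0 for Rhox1. The Rhox5 window (chrX:37754358-37754657) lies upstream of the gene start used above (37804842) and does not reach it. Its 5 CpG therefore do not describe the promoter at that start. Over all 32851 RefSeq windows the median was 7 CpG, so Dazl had more than 85.8% of them and Tex19.2 more than 14.1%.

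**Figure D1:**
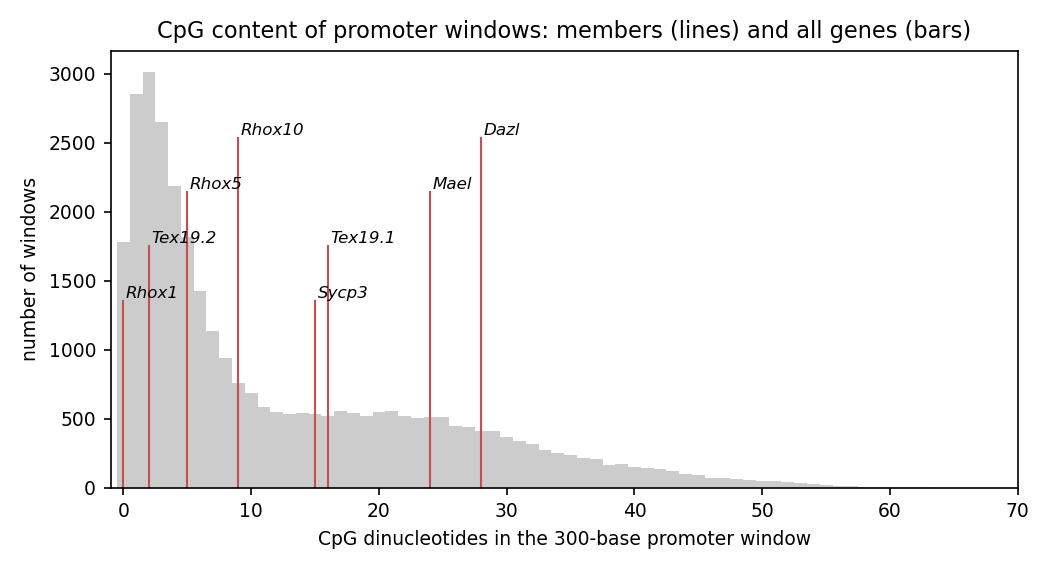
CpG count per 300-base promoter window (x axis) against the number of RefSeq windows with that count (y axis), with vertical lines at the 8 genes that have a window; the height of a line has no meaning. Dazl with 28 and Mael with 24 stand to the right of the median of 7, while Rhox1 with 0 and Tex19.2 with 2 stand to its left.

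Motif letters were searched on both strands in the same windows. CACGTG, an E-box that MAX and MYC proteins bind, occurred once in Mael and 2 times in Sycp3, and in 7.15% of all windows. CAGCTG, the E-box that TFAP4 prefers, occurred in the Rhox1 window alone among the 8, and in 16.3% of all windows. TCCCGC, the core that E2F proteins bind, occurred in Mael (2 matches), Sycp3 (1) and Tex19.1 (1), and in 20% of all windows. CACGTG and TCCCGC each contain a CpG, and matches of different motifs that overlap were each counted.

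Several microRNAs of the deleted cluster share a seed, bases 2 to 8 of the mature microRNA, which pairs with sites in 3′ UTRs. The seed is in capitals below, and the sites that follow show its complement AGCACTT in capitals.
miR-291a-3p: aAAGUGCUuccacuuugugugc
miR-294-3p: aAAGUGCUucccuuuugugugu
miR-295-3p: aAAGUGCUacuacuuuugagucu
Rhox1: ccatatcccctcAGCACTTgtgctttc
Rhox6: agattttggagcAGCACTTgagtgcca
Rhox9: agattttggagcAGCACTTgagtgcct
These 3 genes of the 10 had a match in an annotated 3′ UTR. The Rhox6 match began at base 16 of a 3′ UTR of 141 bases and the Rhox9 match at base 16 of one of 110 bases, or at base 1760 of a longer annotated one of 1854 bases, and the sequences around both were alike but for the last base shown. The Rhox1 match began at base 176 of 196. Of 12826 tested genes with an annotated 3′ UTR, 18.2% had a match; among the 582 with a 3′ UTR of 100 to 200 bases, 6 (1.03%) did, and among the 2023 with 1500 to 2200 bases, 398 (19.7%) did. Rhox1 and Rhox6 are themselves among these 6 genes and Rhox9, by its longer 3′ UTR, among the 398. Dazl, Mael, Sycp3, Rhox5, Rhox10, Tex19.1 and Tex19.2 had no match in their annotated 3′ UTRs. Whether the microRNAs act on any of the 10 genes was not tested.

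Total counts per library lay between 8326675 and 12726123, and 19271 to 21183 genes had at least 1 count. Levels are CPM, the counts of a gene relative to the library total, scaled with TMM factors, and differences are log2 fold changes with their SE from one edgeR fit to all 8 libraries. The duplicates differed by more than counting error, with a chi-square per degree of freedom of 11.3 in KO, 18.9 in WT, 30.5 in siTfap4 and 37.7 in siNeg. Transcripts over the deleted cluster had 0 counts in all 6 libraries without it, and 88 and 39 counts in WT. Tfap4 averaged 45.5 ± 4.91 CPM in KO and 18.0 ± 2.32 CPM in WT (SD, n = 2 each; edgeR quasi-likelihood test with Benjamini-Hochberg adjustment, adjusted p = 0.00363). It averaged 14.1 ± 2.44 CPM in siTfap4 and 35.9 ± 2.06 CPM in siNeg (edgeR, adjusted p = 0.00365). Summed embryonic stem cell markers (Pou5f1, Sox2, Nanog, Zfp42, Esrrb) were 2000 to 2160 CPM in KO, 1690 to 1710 in WT, 1630 to 1670 in siTfap4 and 1800 to 2020 in siNeg. Single markers, named after their values were seen, changed in opposite directions in siTfap4: Nanog fell by 1.49 (edgeR adjusted p = 0.00403) and Pou5f1 rose by 1.02 (edgeR adjusted p = 0.0121) on the log2 scale.

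Rhox6 and Rhox9, known also as placenta-specific homeobox genes, had the largest differences of the 10 between KO and WT. Rhox6 had 169 and 73.8 CPM in KO, against 4.88 and 2.42 CPM in WT. Rhox9 had 115 and 56.1 CPM in KO, against 3.25 and 0.872 CPM in WT. The groups did not overlap for either gene: the lowest KO library was 15.1 times the highest WT library for Rhox6 and 17.3 times for Rhox9. The log2 fold change was 5.03 (SE 0.52) for Rhox6 and 5.32 (SE 0.52) for Rhox9, a ratio of the means of 33.3 and 41.5. Leaving out KO 1 gave 4.32 for Rhox6 and 4.72 for Rhox9, and leaving out WT 1 gave 5.65 and 6.60. WT counts were low, with 60 and 25 for Rhox6 and 40 and 9 for Rhox9. Both genes followed each other across libraries. The ratio of Rhox6 to Rhox9 counts was 1.47 and 1.32 in KO, 1.5 and 2.78 in WT, 1.61 and 1.59 in siTfap4, and 1.38 and 1.69 in siNeg; the value of 2.78 rests on 9 Rhox9 counts. They are similar genes, and 4.12% of 31-base words in the last 200 bases of either occur in the other. This count covers exact matches in those bases only and the aligner is not named. Whether reads were placed on both genes therefore cannot be told.

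**Figure D2:**
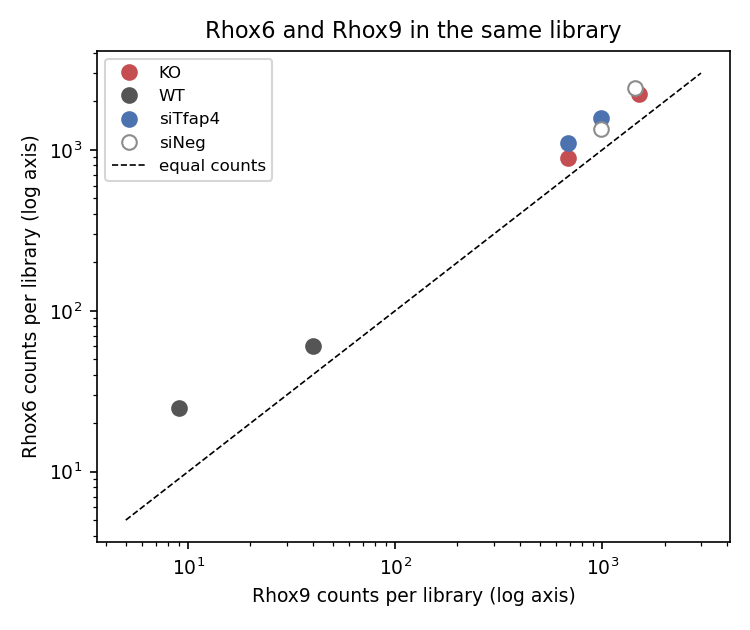
Rhox9 counts per library (x axis, log scale) against Rhox6 counts (y axis, log scale), 1 point per library coloured by group, with a dashed line at equal counts. Both WT points lie at 40 and 9 Rhox9 counts, far below the 6 libraries without the cluster, which lie between 680 and 1503.

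Rhox5, the founding member of the cluster, was transcribed in every group. It had 328 and 324 CPM in KO, against 252 and 159 CPM in WT, a log2 fold change of 0.66 (SE 0.26), and the 2 groups did not overlap. Rhox1 was low throughout, with 2.52 and 2.89 CPM in KO and 0.65 and 1.84 CPM in WT (log2 fold change 1.16, SE 0.55), from 33 and 35 against 8 and 19 counts, and the difference was 0.56 without WT 1 and 2.04 without WT 2. Rhox10, which acts in the formation of spermatogonial stem cells, went the other way. It had 0.229 and 0.825 CPM in KO, against 2.36 and 4.85 CPM in WT (log2 fold change -2.75, SE 0.65), from 3 and 10 counts in KO and 29 and 50 in WT. The difference was -2.09 without KO 1 and -3.87 without KO 2. Rhox10 reached the minimum count for testing through its WT libraries. Of the 5 Rhox genes, all within chrX:37213804-38071691, Rhox10 alone was lower in KO, and that value rests on these low counts.

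The other RNA-binding and meiotic genes were lower in KO. Dazl encodes an RNA-binding protein of germ cells, Mael a protein of transposon silencing, and Sycp3 a component of the axis of meiotic chromosomes. Dazl had 14.9 and 15.3 CPM in KO, against 37.5 and 67.9 CPM in WT (log2 fold change -1.80, SE 0.36). Mael had 13.6 and 20.6 CPM in KO, against 37.3 and 37.8 CPM in WT (log2 fold change -1.13, SE 0.32). Sycp3 had 14.5 and 12.9 CPM in KO, against 33.5 and 17.3 CPM in WT (log2 fold change -0.89, SE 0.35), and all 3 were without overlap between groups. Leaving out 1 library moved Dazl most without WT 2, to -1.31, and Sycp3 most without WT 1, to -0.32.

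Tex19.1, which restrains retrotransposons and is needed in spermatogenesis, and its neighbour and paralog Tex19.2 differed. Tex19.1 overlapped between groups, with 158 and 173 CPM in KO and 163 and 120 CPM in WT (log2 fold change 0.23, SE 0.28). Tex19.2 had 6.27 and 7.18 CPM in KO, against 2.36 and 2.62 CPM in WT (log2 fold change 1.43, SE 0.42). Neither shared a 31-base word of its last 200 bases with another gene.

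Of the 15137 genes tested, 5.99% were called higher in KO and 3.96% lower at an adjusted p of 0.05 by edgeR with Benjamini-Hochberg adjustment. No calls are given for the 10 genes, whose values were in view when they were chosen. Their groups did not overlap with KO higher for 5 and with KO lower for 4, against 28.9% and 28.6% of all genes tested. For the same reason nothing is read from these counts.

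Some markers of other cells differed in this comparison. The 8 primitive endoderm markers summed to 14.0 to 14.2 CPM in KO and 115 to 126 CPM in WT. None of them was at 0 in both libraries of a group. By edgeR with adjustment 5 of the 8 (62.5%) fell, against 3.96% of all genes tested. The 6 fibroblast or feeder markers summed to 9.94 to 20 CPM in KO and 28.5 to 49.9 CPM in WT, with Col3a1, Dcn and Postn at 0 in both groups. These sums were mostly 1 gene, Thy1, with 9.56 and 19.7 CPM in KO and 26.5 and 48.3 CPM in WT. The 10 trophectoderm markers overlapped between groups, with a lowest sum of 18.2 CPM in KO and sums of 18.1 to 31.1 CPM in WT, with Tpbpa at 0 in all groups, and the 8 2-cell-like markers to 4.21 to 11.8 CPM in KO and 1.36 to 1.71 CPM in WT. Their part in the differences of the 10 genes was not tested. In these bulk samples fewer cells of a type and less RNA per cell cannot be told apart.

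**Figure D3:**
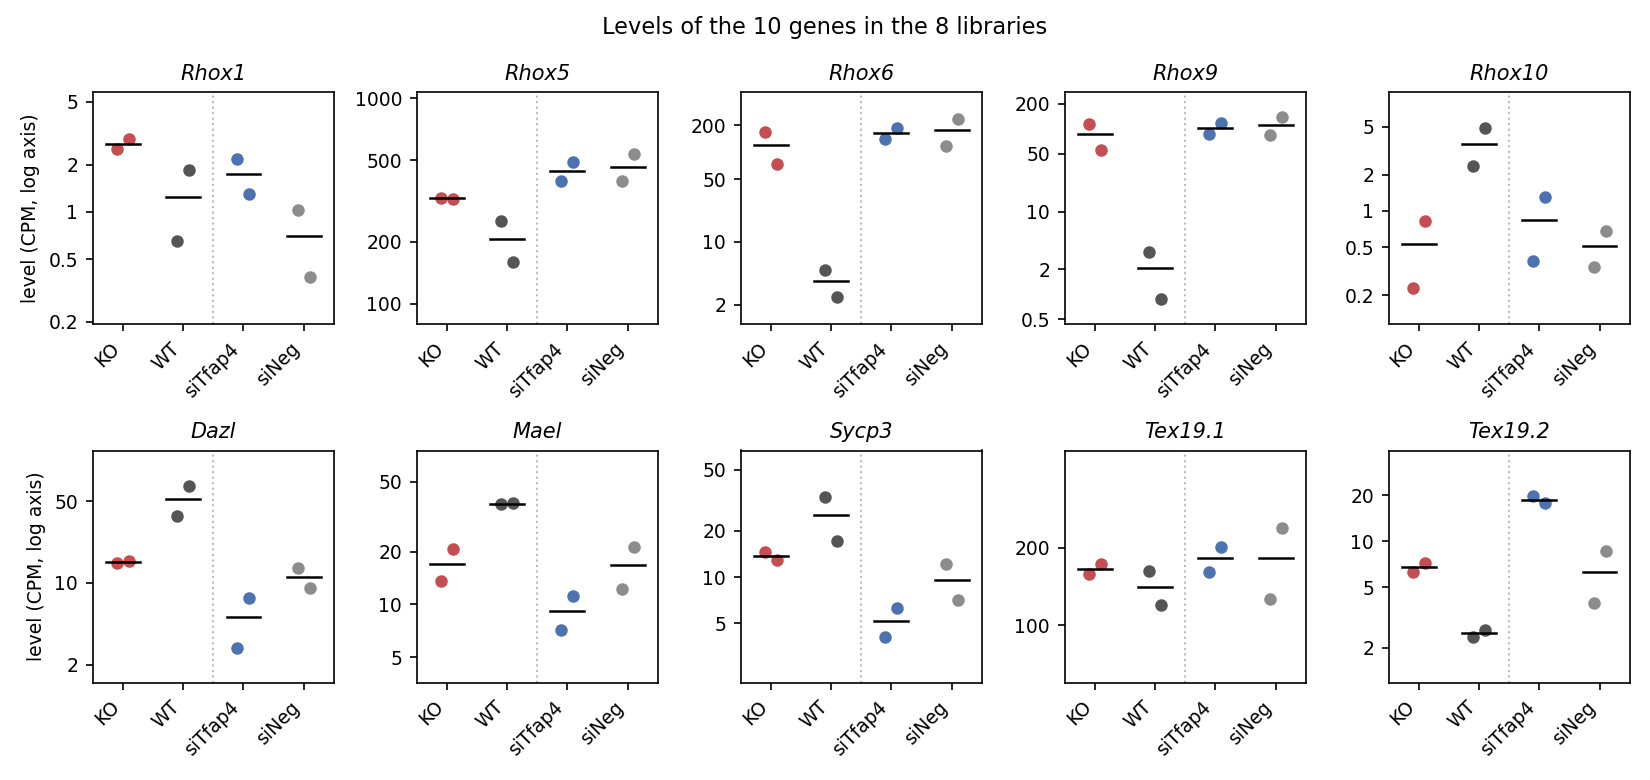
Level in CPM (log y axis) of each of the 10 genes in the 4 groups (x axis), 1 point per library and a bar at the group mean, a panel per gene. Rhox6 and Rhox9 lie far lower in WT than in the other 3 groups, while Dazl, Mael, Sycp3 and Rhox10 are highest in WT.

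In the knockdown comparison the Rhox genes with high levels did not separate. Rhox6 had 140 and 186 CPM in siTfap4, against 116 and 235 CPM in siNeg (log2 fold change -0.10, SE 0.40). Rhox9 had 86.6 and 117 CPM in siTfap4, against 84.2 and 139 CPM in siNeg (log2 fold change -0.13, SE 0.38). Both groups overlapped for each gene, and both were far above the WT levels given above. These groups differ from WT in the cluster, in transfection and in preparation set, which cannot be told apart. Rhox5 overlapped too, with 396 and 490 CPM in siTfap4 and 394 and 536 CPM in siNeg (log2 fold change -0.07, SE 0.26), as did Tex19.1, with 161 and 202 CPM in siTfap4 and 127 and 238 CPM in siNeg (log2 fold change -0.01, SE 0.28). Rhox10 was near its floor, with 3 and 11 counts in siTfap4 and 4 and 7 in siNeg. Its log2 fold change was 0.76 (SE 0.94) and became -0.39 without siTfap4 2.

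Tex19.2 and Rhox1 were higher in siTfap4 in every library. Tex19.2 had 19.6 and 17.7 CPM in siTfap4, against 3.94 and 8.61 CPM in siNeg (log2 fold change 1.58, SE 0.36). Rhox1 had 2.17 and 1.30 CPM in siTfap4, against 1.03 and 0.387 CPM in siNeg (log2 fold change 1.23, SE 0.71), from 17 and 11 counts in siTfap4 and 12 and 4 in siNeg. Its difference was 0.72 without siNeg 2 and 2.10 without siNeg 1.

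Dazl, Mael and Sycp3 were lower in siTfap4. Dazl had 2.80 and 7.43 CPM in siTfap4, against 13.5 and 9 CPM in siNeg (log2 fold change -1.12, SE 0.43). Mael had 7.13 and 11.1 CPM in siTfap4, against 12.3 and 21.2 CPM in siNeg (log2 fold change -0.87, SE 0.35). Sycp3 had 4.08 and 6.25 CPM in siTfap4, against 12.1 and 7.07 CPM in siNeg (log2 fold change -0.89, SE 0.42). Without siTfap4 1 the differences were -0.61, -0.60 and -0.63 in that order of genes, and without siTfap4 2 they were -2.02, -1.24 and -1.25. Without siNeg 1 they were -0.81, -1.23 and -0.46, and without siNeg 2 they were -1.39, -0.45 and -1.23. The gaps were small, with the lowest siNeg library 1.21, 1.11 and 1.13 times the highest siTfap4 library for Dazl, Mael and Sycp3. The transcript ends of these genes are poor in G and C: the last 100 bases hold 26% for Dazl, 31% for Mael and 29% for Sycp3, against a median of 38% over tested genes. The count-weighted mean GC of those bases was 39.8% and 39.1% in siTfap4 and 37.4% and 38.6% in siNeg. With a correction for it the differences became -0.64 for Dazl, -0.61 for Mael and -0.50 for Sycp3, while Tex19.2, with 44% GC, had 1.38.

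Of all genes tested, 4.36% were called higher in siTfap4 and 11.1% lower by edgeR, and here too no calls are given for the 10 genes. Their groups did not overlap with siTfap4 higher for 2 and with siTfap4 lower for 3, against 28.9% and 29.3% of all genes. Nothing is read from these counts either. No library is shared between the KO and WT comparison and the siTfap4 and siNeg comparison. Primitive endoderm markers summed to 9.08 to 13.6 CPM in siTfap4 and 9.10 to 16.2 CPM in siNeg, and fibroblast or feeder markers to 6.84 to 9.81 CPM in siTfap4 and 10.3 to 12.1 CPM in siNeg. Thy1 again made up most of the fibroblast or feeder sums, with 9.43 and 6.72 CPM in siTfap4 and 11.9 and 9.68 CPM in siNeg. The part of these markers in the differences was not tested.

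**Figure D4:**
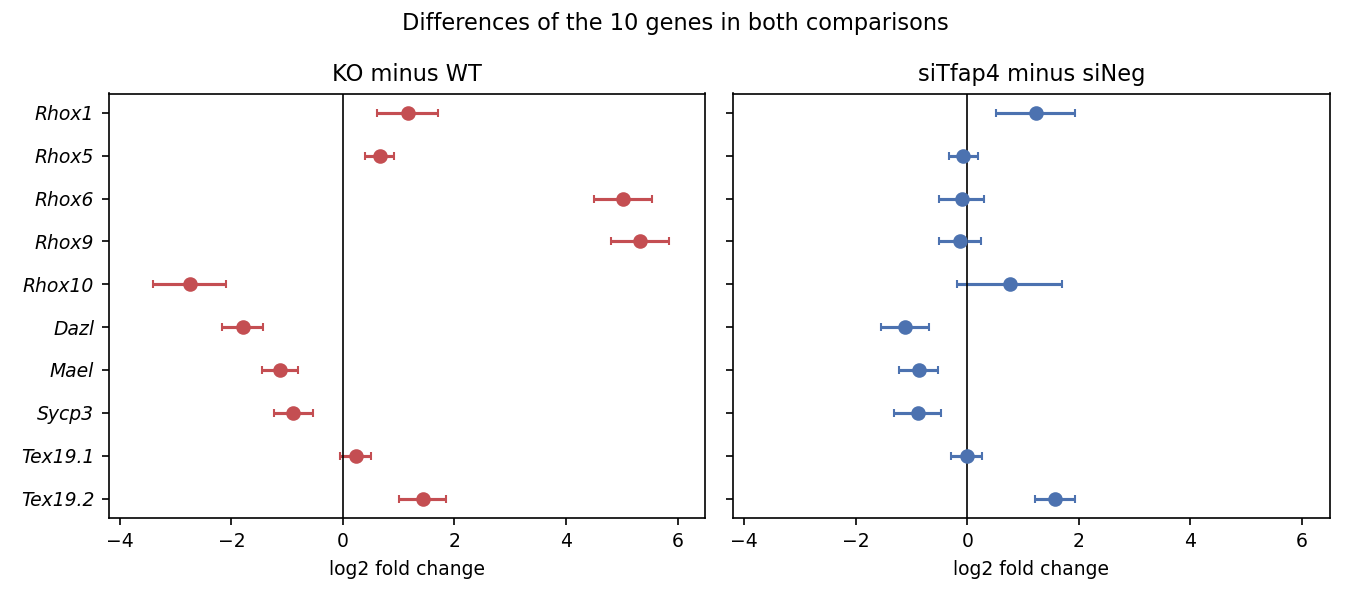
Log2 fold change (x axis) of the 10 genes, KO minus WT on the left and siTfap4 minus siNeg on the right, with bars of 1 SE. Rhox6 and Rhox9 stand at 5.03 and 5.32 on the left and at -0.10 and -0.13 on the right, while Dazl, Mael and Sycp3 are below 0 and Tex19.2 above 0 in both.

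Across the 4 groups the 10 genes took differing orders. Rhox6 and Rhox9 ran siNeg, siTfap4, KO, WT from high to low, and only KO and WT, the last neighbours, did not overlap. Their group means spanned 48.1-fold for Rhox6 and 54.1-fold for Rhox9. Rhox5 ran in the same order, with KO apart from both siTfap4 and WT, and spanned 2.26-fold, while Tex19.1 spanned 1.29-fold and no neighbours were apart. Dazl, Mael and Sycp3 ran WT, KO, siNeg, siTfap4, spanning 10.3-fold, 4.12-fold and 4.91-fold, and every neighbouring pair was apart except siNeg and KO for Mael. Tex19.2 ran siTfap4, KO, siNeg, WT, spanning 7.50-fold, and KO and siNeg overlapped. Rhox10 was highest in WT and the other groups overlapped; Rhox1 was highest in KO, apart from siTfap4 alone among neighbours. Groups of 2 libraries are often apart. In KO against WT this held for 28.9% of all genes tested with KO higher and 28.6% with KO lower. In siTfap4 against siNeg it held for 28.9% with siTfap4 higher and 29.3% with siTfap4 lower. No such share was computed for the other neighbours, and nothing is read from these separations. Differences between siNeg or siTfap4 and the untreated KO mix transfection and preparation set, which cannot be told apart. Those between siNeg or siTfap4 and WT, the fold spans with WT at an end among them, mix the loss of the cluster with both.

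The spread between duplicates was wide for several of the 10 genes. For Rhox6 the higher duplicate was 2.29 times the lower in KO, 2.01 in WT, 1.33 in siTfap4 and 2.02 in siNeg. For Rhox9 these ratios were 2.05 in KO, 3.73 in WT, 1.35 in siTfap4 and 1.65 in siNeg, and the higher library was the same for both genes in each group. The Rhox10 duplicates, at low counts, differed by up to 3.60-fold. Tex19.2 was closer in 3 groups, with 1.14 in KO, 1.11 in WT, 1.11 in siTfap4 and 2.19 in siNeg.

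By Pearson correlation of log2 CPM over the 8 libraries, the genes most like Rhox9 with a mean of at least 10 CPM were Zfp607b (r = 0.991), Parvg (0.989), Pla2g2e (0.987), Lefty2 (0.985) and Bace1 (0.984), as a description without a p. Rhox6 had r = 0.996. Lefty2, a nodal antagonist, had 185 and 150 CPM in KO, against 20 and 11 CPM in WT. These libraries fall into low WT and higher groups without the cluster, so a gene that differs in that way ranks high.

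Apart from Rhox13, the rest of the Rhox cluster had few or no counts. Of 29 further Rhox genes, 21 had no count in any library, and the highest total of an untested one over the 8 libraries was 18. The aligner and counter are not named, so reads that match several Rhox genes may have been left out. Shared sequence is given for tested genes only, and a low count is therefore not read as absence of the transcript. Rhox13 was the 1 that could be tested, with 10.9 and 20.5 CPM in KO and 11.6 and 24.4 CPM in WT (log2 fold change -0.20, SE 0.49, edgeR adjusted p = 0.864). In siTfap4 it had 5.61 and 14.2 CPM, against 5.06 and 12 CPM in siNeg (log2 fold change 0.23, SE 0.55, edgeR adjusted p = 0.81).

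A list of 39 other methylation-sensitive germline genes gave 32 tested genes. In KO, 9 of them fell and 2 rose (edgeR with Benjamini-Hochberg adjustment), with a median log2 fold change of -0.604 against -0.00612 over all genes, and 23 of 32 were below 0. Those that fell made 28.1% of the list, against 3.96% of all genes. Among those that fell, Tex101 had 1 and 0 counts in KO and 12 and 11 in WT. Tuba3b had 3 and 5 counts in KO and 11 and 39 in WT. Both reached the minimum count for testing through their WT libraries. The list was also chosen with earlier results of these data known, so its calls and the share of 28.1% are given as a description. Without KO 1 the number that fell was 3, without KO 2 it was 2, without WT 1 it was 7 and without WT 2 it was 3. Tex15, needed for meiotic recombination and transposon silencing, averaged 4.51 ± 0.657 CPM in KO and 23.8 ± 7.21 CPM in WT (SD, n = 2 each; log2 fold change -2.39, edgeR adjusted p = 0.000379). Tdrkh, a piRNA pathway protein, averaged 1.64 ± 0.368 CPM in KO and 6.22 ± 0.978 CPM in WT (log2 fold change -1.93, edgeR adjusted p = 0.0146). The call on Tdrkh was lost without KO 1, KO 2 or WT 1. Tuba3b, a testis alpha-tubulin, fell by 2.78 on the log2 scale (edgeR adjusted p = 0.0293) but shares 64.7% of its last 200 bases' words with other genes, so its value is uncertain, and the call was lost with DESeq2, with the 4 libraries alone and without KO 1, KO 2 or WT 2. D1Pas1, a testis RNA helicase, rose with 15.6 ± 2.80 CPM in KO and 4.18 ± 2.48 CPM in WT (log2 fold change 1.87, edgeR adjusted p = 0.00419), a call lost without WT 2. The others that fell, named after their values were seen, were Tex101, Meioc, Stk31, Sycp1, Mov10l1 and Smc1b, with log2 fold changes between -4.33 and -1.55. Tex14 rose by 0.84. Tdrkh and D1Pas1 overlap genes on the other strand, Oaz3 and Gm37912 among them, so the same limit as for Sycp3 applies. Tdrkh also overlaps Gm42463 on the same strand, where a strand setting cannot keep reads apart.

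In siTfap4, 1 of the 32 rose and 1 fell, 3.12% each way, against 4.36% of all genes tested called higher and 11.1% called lower, with a median log2 fold change of 0.125 against 0.0104 over all genes. Hormad1, a protein of the meiotic chromosome axis, averaged 0.363 ± 0.153 CPM in siTfap4 and 3.03 ± 0.447 CPM in siNeg (SD, n = 2 each; log2 fold change -3.01, edgeR adjusted p = 0.00685). Taf7l, a germ cell subunit of TFIID, averaged 8.34 ± 2.79 CPM in siTfap4 and 3.26 ± 0.859 CPM in siNeg (log2 fold change 1.36, edgeR adjusted p = 0.034). Both calls were lost without siTfap4 1 or siNeg 1, and that on Taf7l also without siNeg 2.

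**Figure D5:**
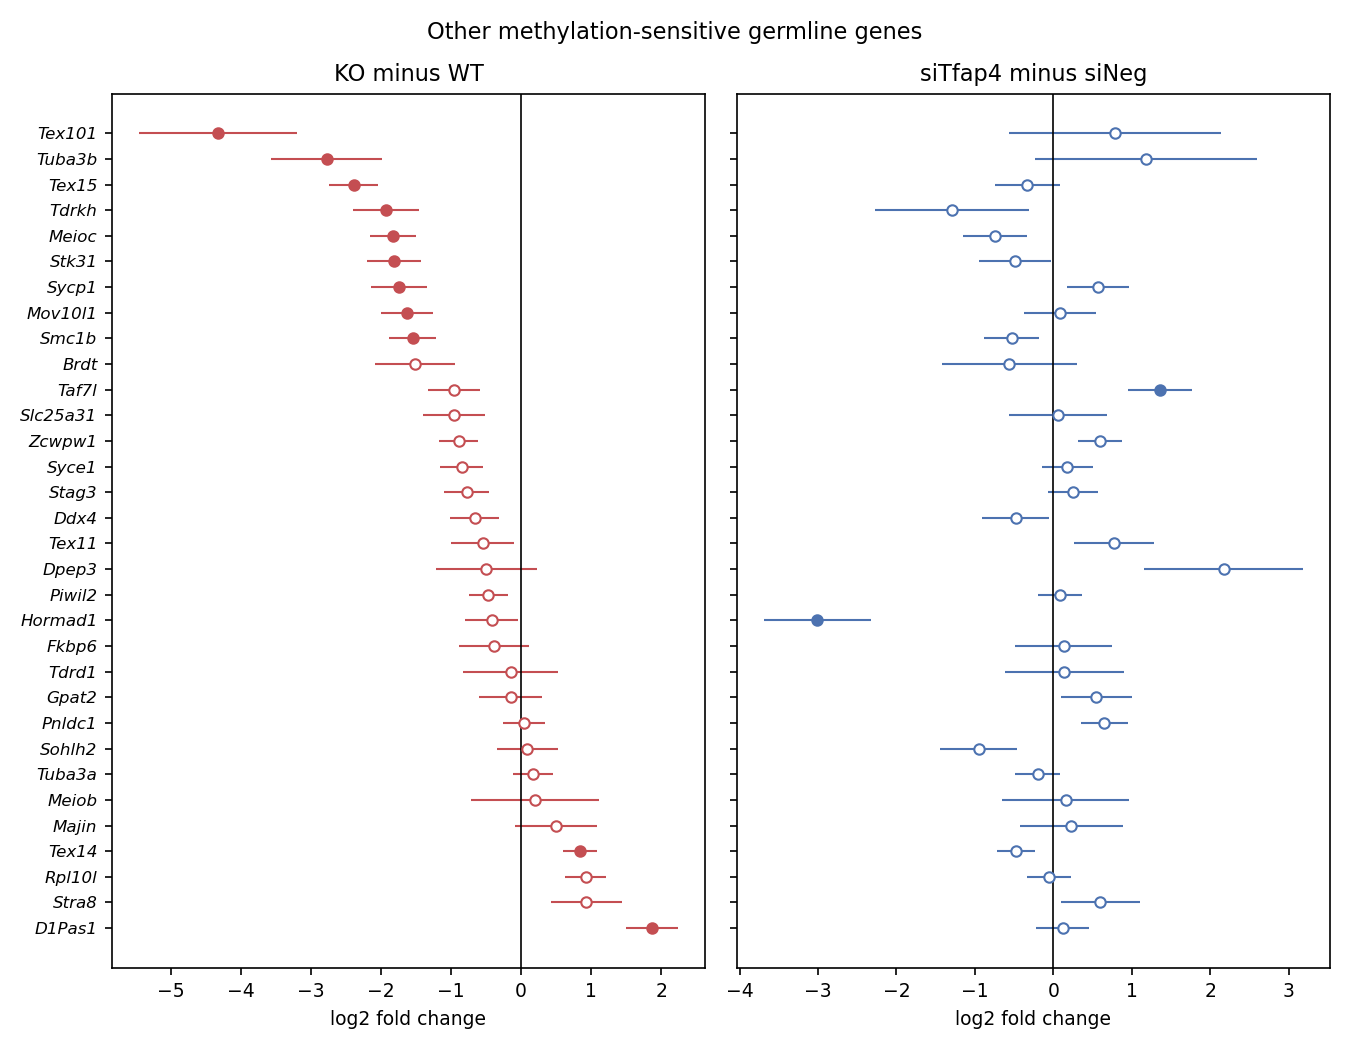
Log2 fold change (x axis) of the 32 tested other methylation-sensitive germline genes, a row per gene, KO minus WT on the left and siTfap4 minus siNeg on the right, with bars of 1 SE and filled points for called genes. In KO minus WT 23 of the 32 points lie below 0, and in siTfap4 minus siNeg 12 do.

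The promoter windows of this list were rich in CpG, with a median of 20 over 36 windows, and CACGTG occurred in 44.4% of them. Windows of genes that fell in KO had a median of 25 CpG (9 windows of 8 genes, 16 to 29 CpG). Those of tested genes that did not fall had a median of 20 (23 windows of 18 genes, 3 to 38 CpG), so the ranges overlapped.

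Among repressors of germline genes and the DNA methylation machinery few changed in KO. Dnmt3l, the cofactor of the de novo DNA methyltransferases, averaged 63.5 ± 0.246 CPM in KO and 241 ± 41.1 CPM in WT (SD, n = 2 each; log2 fold change -1.92, edgeR adjusted p = 0.000125), and the other 8 of 9 genes of the machinery did not pass. Dnmt3l overlaps Aire on the other strand. Mbd2, which binds methylated CpG, rose by 0.90 (edgeR adjusted p = 0.0388), the 1 call among 18 repressors (5.56%, against 5.99% of all genes called higher), and it was lost without any 1 of the 4 libraries. In siTfap4, 3 of the 18 repressors fell and 1 rose, which is 16.7% and 5.56% of them. Over all genes tested 11.1% were called lower and 4.36% higher, so these shares lie near the general ones. E2f6, of the Polycomb complex named above, averaged 3.90 ± 2.82 CPM in siTfap4 and 14.6 ± 0.990 CPM in siNeg (log2 fold change -1.89, edgeR adjusted p = 0.00506). Max, of the same complex, fell by 1.19 (edgeR adjusted p = 0.00706) and Mbd2 fell by 1.97 (edgeR adjusted p = 0.000443). Max overlaps Gm47218 on the same strand. The calls on E2f6 and Max were lost without siTfap4 1. Ehmt2, an H3K9 methyltransferase, rose by 0.95 (edgeR adjusted p = 0.0245), a call lost with the GC correction, with the 4 libraries alone and without siTfap4 1, siNeg 1 or siNeg 2. Uhrf1, which brings DNMT1 to newly replicated DNA, fell by 0.96 (edgeR adjusted p = 0.0132), a call lost without siTfap4 1 or siNeg 1.

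Of 8 regulators of primordial germ cells, 4 rose in KO: Prdm1 by 2.20, Tfap2c by 1.77, Nanos3 by 2.56 and Ifitm3 by 1.58 on the log2 scale (edgeR adjusted p = 0.000277, 0.00173, 0.0143 and 0.00642). Over all genes tested 5.99% were called higher in KO. This list too was chosen with earlier results of these data known, so its calls are given as a description. Without WT 2, 2 of the 8 rose. Nanos3 was low, with 9.48 and 5.03 CPM in KO and 1.71 and 0.678 CPM in WT, and was not called without KO 1 or WT 2. Ifitm3 was not called without WT 2 or with the 4 libraries alone. In siTfap4, Kit fell by 1.18 (edgeR adjusted p = 0.0152), a call lost with the GC correction and without siTfap4 1 or siNeg 1. The medians of the list were 1.22 in KO minus WT and -0.687 in siTfap4 minus siNeg. Nanos3 overlaps Mir181c and Mir181d on the same strand.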

How the data were processed

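Counts per gene of 8 libraries were used as deposited. Per the submitters' processing notes, reads were trimmed with Trim Galore and the genome build was GRCm38; no aligner, counter, strand setting or annotation release is named there. Per the labels' protocols, libraries were made with the QuantSeq 3′ forward kit. Of 55421 identifiers, 55154 had a symbol. The 10 genes and the gene lists were chosen with earlier results of these data known.

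Genes passing filterByExpr (15137, all 10 members among them) were fitted in edgeR 4.0.16 (limma 3.58.1, R 4.3.3) with the robust quasi-likelihood model, TMM factors, 4 group means and 4 residual degrees of freedom; p-values were adjusted by Benjamini-Hochberg, threshold 0.05. A call measures only the spread between duplicates, which the design text calls biological; whether they came from separate cultures is not stated. CPM were computed here from the counts, and an SE is the size of the coefficient over the square root of its quasi-likelihood F. Named list genes were up to 4 called genes per list and comparison with the largest absolute change and a mean of at least 1 CPM, or, with no call, the 2 most abundant tested genes. Alternatives were DESeq2 1.42.0, RLE factors, no filter, the 4 libraries of a comparison alone, a replicate block, and leaving out each library, plus, added after seeing the data, a correction for GC of the last 100 bases (lowess span 0.3), alone and with the block. The fit was tested on simulated data. Promoter windows and microRNA sequences are from RefSeq (GRCm38.p6); 3′ UTRs are from the annotation supplied, and the last 200 bases were compared in words of 31.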

Additional observations from a re-analysis of the deposited data

How the results depend on the processing

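All 10 genes kept the sign of their KO minus WT difference under all 11 alternatives, with Sycp3 between -1.29 and -0.32 and Tex19.1 between 0.03 and 0.47. In siTfap4 minus siNeg, Rhox1, Dazl, Mael, Sycp3 and Tex19.2 kept their sign, while Rhox5, Rhox6, Rhox9, Rhox10 and Tex19.1 changed theirs when 1 library was left out. Genes called numbered 1506 in KO against WT and 2334 in siTfap4 against siNeg. They numbered 1393 and 2705 with DESeq2, 1505 and 2363 with RLE factors, 1597 and 2206 without a filter, 1572 and 1893 with the GC correction, 1708 and 2189 with the GC correction and replicate block, and 1861 and 1793 with the 4 libraries alone. Leaving out 1 library gave 629 to 880 genes called in KO against WT and 522 (without siTfap4 1) to 2961 in siTfap4 against siNeg, with 762 without siNeg 1. The cause of these changes was not tested.

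Of the other germline genes, 2 rose in KO, against 4 with the GC correction and replicate block and 4 with the 4 libraries alone; leaving out 1 library gave 0 to 2 that rose and 2 to 7 that fell. In siTfap4 these ranges were 0 to 2 that rose and 0 to 2 that fell. Among the named genes of the lists, 39 alternative values lost a call and 0 reversed. Tex15, Dnmt3l, Prdm1, Tfap2c and, in siTfap4, Mbd2 kept their calls under all 11.

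The replicate numbers do not mark shared cultures in the labels, and deviations of same-numbered libraries correlated at -0.06 in KO and WT and 0.13 in siTfap4 and siNeg, from 1 correlation in each comparison. KO 2 and WT 1, whose titles share a code, have different replicate numbers, and no result for a block that pairs them is given. With the replicate number as a block, 1337 genes were called in KO against WT and 2064 in siTfap4 against siNeg, and 0 of the other germline genes rose in siTfap4, where Taf7l lost its call (edgeR adjusted p = 0.0561). Mbd2 then lost its call in KO (edgeR adjusted p = 0.0641). Taf7l also lost its call with the GC correction and replicate block. With 2 libraries a group, and fewer than 50 counts for Rhox1 and Rhox10 in most libraries, small differences of low genes were not detectable.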
